A study of Mus musculus with 24 samples.

Results

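The 8 genes described here encode secreted or membrane-anchored proteins that act on synapses, namely the thrombospondins Thbs1, Thbs2, Thbs3 and Thbs4, the matricellular proteins Sparc and Sparcl1 (hevin), and the glypicans Gpc4 and Gpc6. They were taken by gene identifier from a table of 55471 genes, and all 8 passed the filter on low counts in every comparison. The set was assembled with earlier results of these data in view, and Thbs3 was chosen by its lower level in the CBP-ifKO libraries analyzed here, so its genotype values are given as a description without a test.

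Hippocampal RNA was sequenced from 12 female C57BL/6 mice aged 3 to 6 months, namely 6 CBP-ifKOs and 6 control littermates. Of either genotype, 3 mice lived in standard cages (SC) and 3 in environmental enrichment (EE). CBP-ifKOs carried floxed Crebbp alleles and the CaMKIIα-creERT2 transgene. Tamoxifen, given 5 times, induced recombination of the floxed alleles and left a truncated CBP without acetyltransferase activity. Controls lacked the Cre transgene and also received tamoxifen. EE consisted of large boxes with running wheels, tubes and toys for about a month. The driver acts in excitatory neurons of the forebrain, so glia, vessels and interneurons of the same tissue are not its targets.

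Thrombospondins are calcium-binding glycoproteins of the extracellular matrix that astrocytes release and that promote the formation of excitatory synapses through the calcium channel subunit α2δ-1, encoded by Cacna2d1. Thbs1 and Thbs2 form trimers, whereas Thbs3 and Thbs4 form pentamers. Hevin bridges neurexins and neuroligins across the synaptic cleft, and Sparc opposes its synaptogenic action. Gpc4 and Gpc6 are heparan sulfate proteoglycans on a lipid anchor that, once shed by astrocytes, recruit AMPA receptors to synapses.

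Each library held between 26874015 and 27971488 counts in controls and between 28582210 and 37448388 counts in CBP-ifKOs, so that 3 counts corresponded to between 0.0801 and 0.112 CPM (the count relative to library size), a limit for counting error only. Counts of CBP-ifKO libraries were even throughout, whereas between 54.1% and 55.1% of the nonzero counts of a control library were odd, so evenness and genotype coincide. Whether reads of the CBP-ifKO libraries were counted 2 times was not tested. If so, their totals and counts are overstated and a count of 3 cannot occur in them, so the limit in CPM would be higher there. Halving the CBP-ifKO counts left the same number of the 7 relatives of Thbs3 called in each comparison. Crebbp was lower in all CBP-ifKOs, with 50.0 to 51.6 CPM against 70.7 to 81.9 CPM in SC and 44.5 to 48.3 CPM against 69.6 to 77.1 CPM in EE, whereas the paralog Ep300 lay between 55.8 and 85.3 CPM over all mice. All 7 markers of hippocampal excitatory neurons were detected in every library. One control EE library, replicate 1, had a summed level of 9 choroid plexus markers of 1296 CPM, against 39.3 to 68.1 CPM in the other 11. Because whole hippocampus was sequenced, fewer cells of a type and less RNA per cell cannot be told apart.

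Per kilobase of gene length, the scale on which the levels of the 8 genes are ranked here, Sparcl1 was by far the most abundant of them. Its mean level in control SC mice was 618 ± 10 CPM per kilobase (SD, n = 3 mice), followed by Sparc at 67.4 ± 10.7 and Gpc4 at 11.7 ± 0.416 CPM per kilobase. Among the thrombospondins, Thbs3 led with 8.84 ± 0.386 CPM per kilobase, ahead of Thbs4 with 4.44 ± 0.608. Thbs2, Thbs1 and Gpc6 formed the low end, at 0.783 ± 0.0543, 0.511 ± 0.285 and 0.456 ± 0.0954 CPM per kilobase. In control SC mice the ranges of neighboring genes in this order did not overlap from Sparcl1 down to Thbs2, while Thbs2 overlapped Thbs1 and Thbs1 overlapped Gpc6. The order of the 5 lower genes differed between groups, since Thbs4 ranked above Thbs3 in both CBP-ifKO groups, with overlapping ranges in CBP-ifKO EE mice, and Gpc6 ranked above Thbs1 in CBP-ifKO SC and control EE mice.

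**Figure D1:**
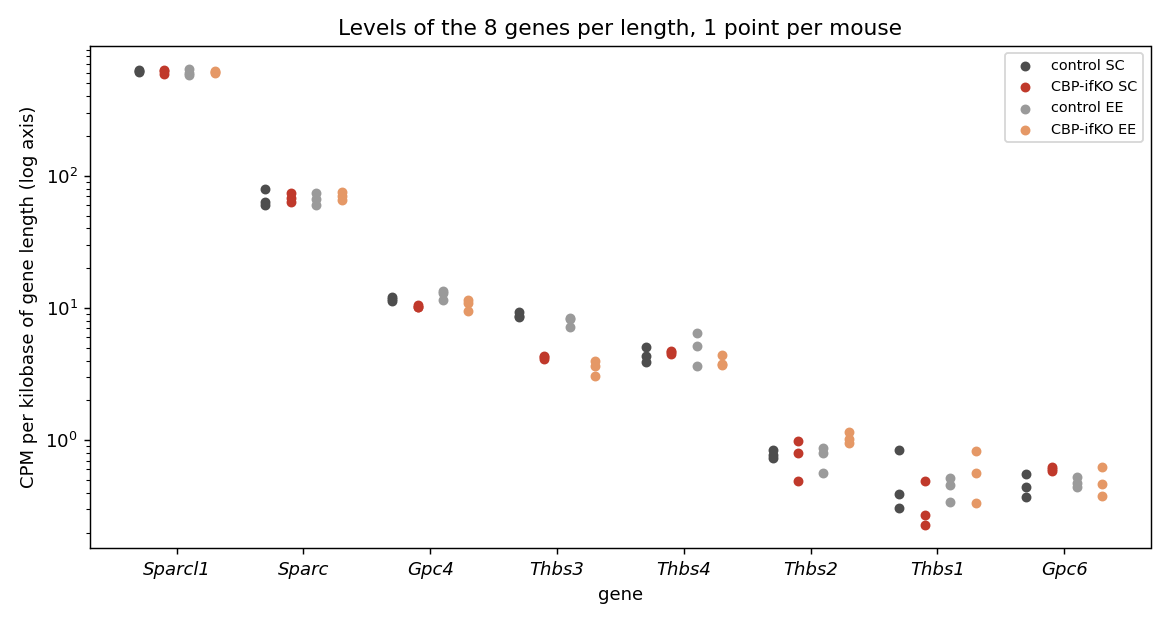
Levels of the 8 genes in CPM per kilobase of gene length on a log axis, with 1 point per mouse and 1 color per group. Sparcl1 lies near 600 in all groups, and Thbs3 lies above Thbs4 in the 6 controls and close to or below it in the 6 CBP-ifKOs.

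Thbs3 was the gene of this set that differed most between genotypes, at 0.480 times the control level in SC and 0.451 times in EE. Thbs3 lies at chr3:89215180-89226837 on the plus strand of GRCm38. In SC, its level was 41.2, 42.0 and 44.7 CPM in the 3 controls and 20.9, 19.7 and 20.7 CPM in the 3 CBP-ifKOs. In EE, it was 34.7, 39.5 and 40.5 CPM in controls and 17.6, 19.1 and 14.7 CPM in CBP-ifKOs. Every CBP-ifKO was below every control, which was also the case, in either direction, for 25.9% of all genes tested in SC and 25.3% in EE. The fitted log2 change between genotypes was −1.06 (SE 0.0670) in SC and −1.15 (SE 0.102) in EE. Leaving out any single mouse kept these changes between −1.08 and −1.02 in SC and between −1.24 and −1.05 in EE. The difference between the genotype changes in both housings was −0.10 (SE 0.124, 95% interval −0.36 to 0.16) and did not pass the test (edgeR quasi-likelihood F test, adjusted p = 0.9998), with 0% of 18251 genes called. Without CBP-ifKO EE replicate 3 this difference was −0.0016, and without control EE replicate 1, the library with the choroid plexus signal, it was −0.16.

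**Figure D2:**
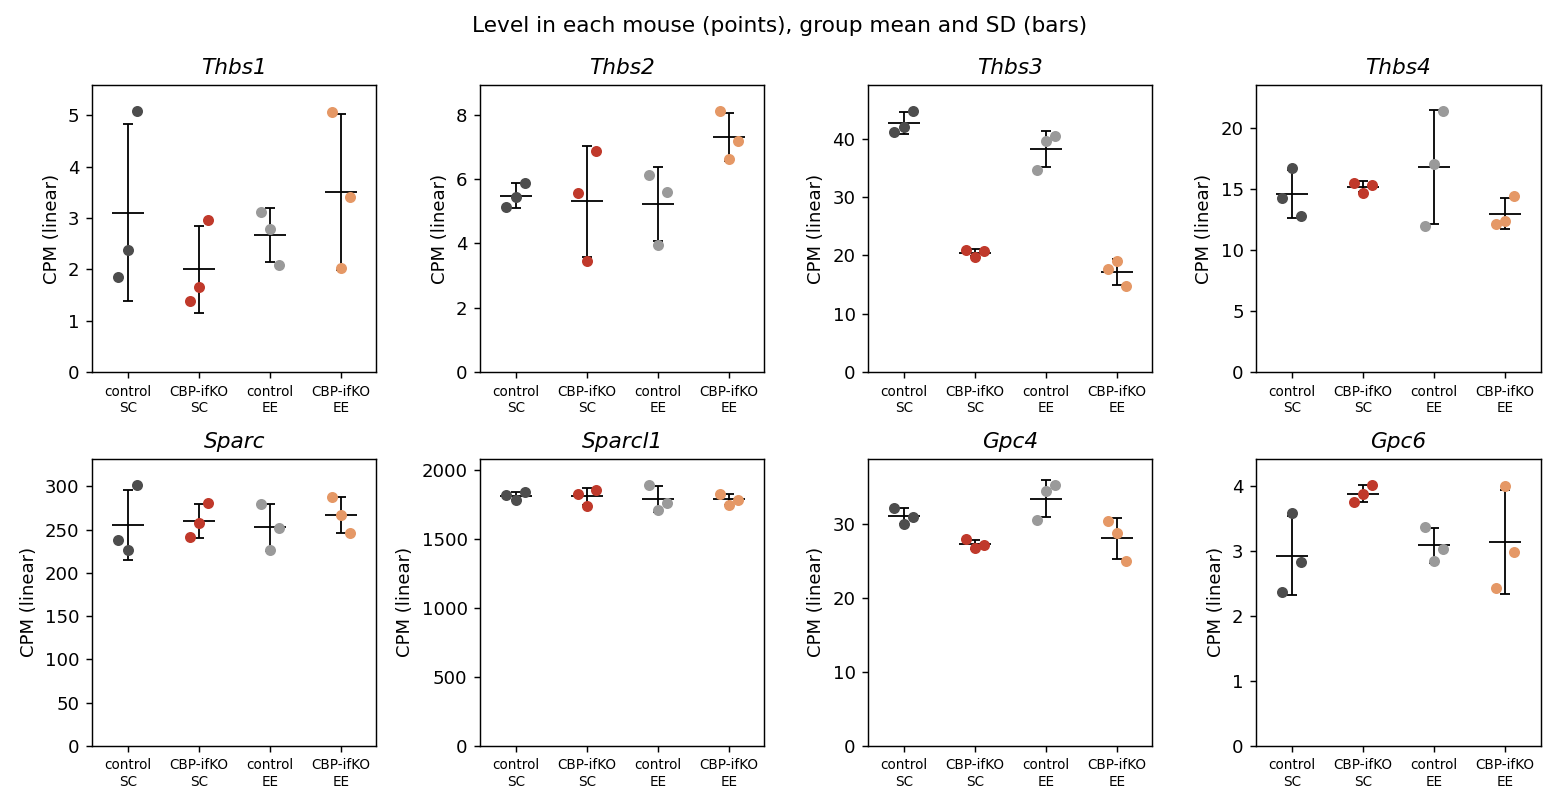
Level of each gene in CPM on a linear axis, with 1 point per mouse, a horizontal bar for the group mean and whiskers for the SD of 3 mice. The Thbs3 points of the CBP-ifKOs lie between 14.7 and 20.9 CPM, below all control points at 34.7 to 44.7 CPM, while the groups of Sparc and Sparcl1 overlap.

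Enriched mice of either genotype had somewhat less Thbs3 than SC mice of the same genotype, without passing the test. The 3 control EE mice lay below the 3 control SC mice, as the values above show, and the 3 CBP-ifKO EE mice lay below the 3 CBP-ifKO SC mice. Groups that did not overlap were found for 9.11% of genes in the housing comparison of controls and for 15.9% in that of CBP-ifKOs. The log2 change from SC to EE was −0.16 in controls (SE 0.0855, 95% interval −0.34 to 0.02, unadjusted p = 0.0851 and adjusted p = 0.9994 in edgeR's quasi-likelihood F test). In CBP-ifKOs it was −0.26 (SE 0.0894, 95% interval −0.45 to −0.07, unadjusted p = 0.0116 and adjusted p = 0.466 in the same test). Leaving out 1 mouse moved the change in controls to between −0.20 (without control EE replicate 3) and −0.0908 (without control EE replicate 1). In CBP-ifKOs it moved to between −0.34 (without CBP-ifKO EE replicate 2) and −0.16 (without CBP-ifKO EE replicate 3).

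With less Thbs3, the make-up of thrombospondin RNA differed between genotypes. Thbs3 made up 60.7% ± 2.24 of the 4 thrombospondins summed per kilobase in control SC mice and 42.7% ± 1.44 in CBP-ifKO SC mice (SD, n = 3 mice each). In EE the shares were 56.0% ± 3.31 in controls and 38.9% ± 5.09 in CBP-ifKOs. The sum itself was 14.6 ± 0.567 CPM per kilobase in control SC and 9.94 ± 0.567 in CBP-ifKO SC mice, and 14.2 ± 1.91 and 9.12 ± 0.184 in EE. Thbs3 exceeded Thbs4 per kilobase in 6 of 6 controls and in 1 of 6 CBP-ifKOs, the exception being an EE mouse with 3.95 against 3.77 CPM per kilobase. These shares contain the Thbs3 change for which the gene was chosen and are given as a description.

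None of the 7 relatives passed the genotype test within a housing condition, against 5.52% of 17532 genes in SC and 4.57% of 17625 genes in EE. Their median log2 change was −0.0040 in SC, beside −0.0019 over all genes tested, and 0.03 in EE, beside 0.01. In SC, 2 of the 7 had groups that did not overlap (Gpc4 and Gpc6), and so had 2 of the 7 in EE (Gpc4 and Thbs2), near the shares of all genes given above. An unadjusted p below 0.05 was reached by 2 of the 7 in either housing, against 20.5% of genes in SC and 19.6% in EE.

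**Figure D3:**
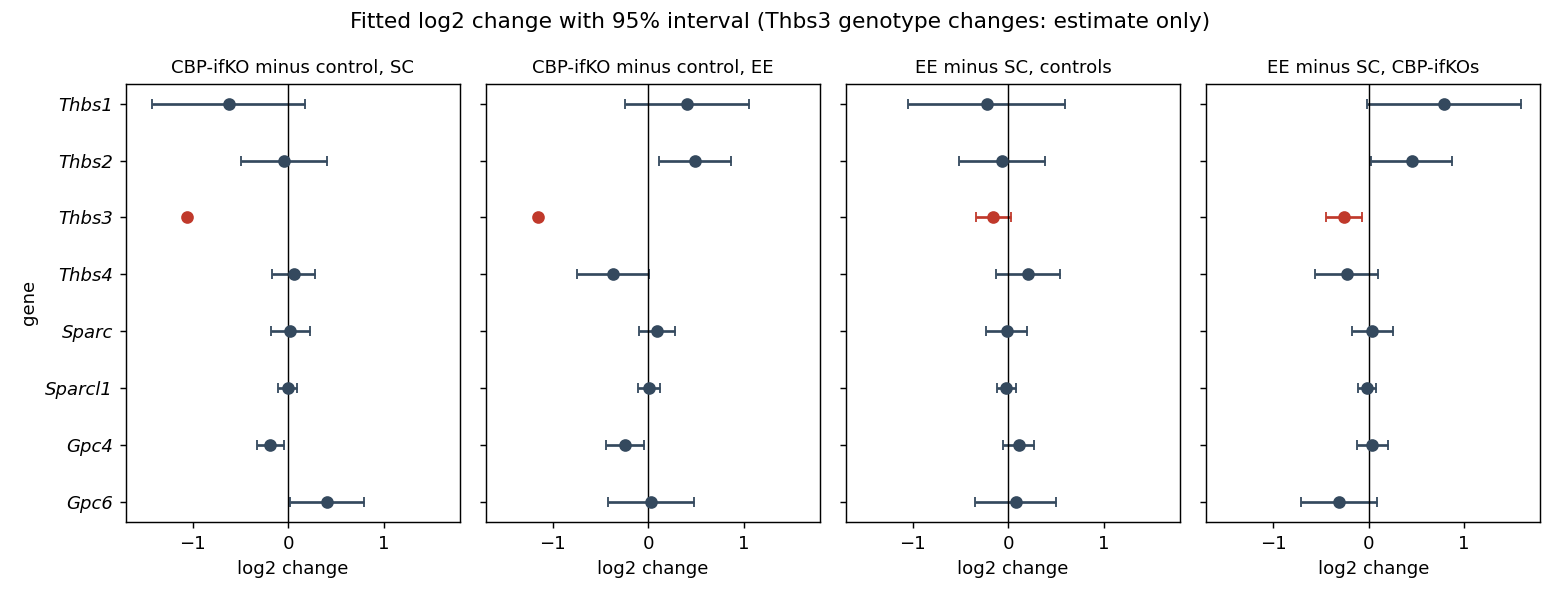
Fitted log2 change (x axis) of each gene, with its 95% interval except for the genotype changes of Thbs3, for the genotype change in SC and in EE and for the housing change in controls and in CBP-ifKOs. The genotype changes of Thbs3 (red) are −1.06 and −1.15, and the estimates of the other 7 genes lie between −0.62 and 0.49 in the genotype panels.

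Thbs4, the thrombospondin nearest to Thbs3 in level and a pentamer like it, showed no called change. Thbs4 lies at chr13:92751590-92794818 on the minus strand. Control SC mice had 14.3, 16.7 and 12.8 CPM of Thbs4 and CBP-ifKO SC mice had 15.5, 14.7 and 15.4 CPM, with overlapping groups. The log2 change was 0.06 (95% interval −0.17 to 0.28, adjusted p = 0.801 in edgeR). In EE, its level was 12.01, 17.1 and 21.4 CPM in controls and 12.1, 12.4 and 14.5 CPM in CBP-ifKOs. One control, the replicate 1 library with the choroid plexus signal, lay at the level of the CBP-ifKOs. The log2 change was −0.37 (95% interval −0.74 to 0.01, adjusted p = 0.271 in edgeR), and without that library it was −0.56 (adjusted p = 0.0310). Over all 14 alternatives the adjusted p ranged from 0.0175 to 0.708 and the change from −0.56 to −0.15. The difference of its genotype change between housings was −0.43 (95% interval −0.90 to 0.04, adjusted p = 0.9998 in edgeR), −0.63 without control EE replicate 1 and −0.22 without control EE replicate 3.

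The 250 bases before the start sites of Thbs3 and Thbs4 are shown because both genes had similar levels in CBP-ifKOs and differed in their genotype values. The windows are from RefSeq on GRCm38.p6, at chr3:89214930-89215179 on the plus strand and chr13:92794819-92795068 on the minus strand, printed 5′ to 3′ on the gene's strand. Capitals mark the GC box, GGGCGG or its reverse complement, a motif bound by Sp1-type factors.
Thbs3: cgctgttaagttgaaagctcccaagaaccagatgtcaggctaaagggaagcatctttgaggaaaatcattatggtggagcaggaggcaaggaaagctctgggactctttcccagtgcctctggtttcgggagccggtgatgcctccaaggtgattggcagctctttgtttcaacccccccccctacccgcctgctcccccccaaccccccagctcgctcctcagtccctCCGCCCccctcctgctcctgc
Thbs4: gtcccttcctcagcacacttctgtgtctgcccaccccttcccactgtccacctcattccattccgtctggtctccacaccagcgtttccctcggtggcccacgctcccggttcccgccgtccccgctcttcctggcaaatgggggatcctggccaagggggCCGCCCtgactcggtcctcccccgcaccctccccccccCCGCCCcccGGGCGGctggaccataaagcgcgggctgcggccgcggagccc
The Thbs3 window holds 1 GC box and the Thbs4 window holds 3, of which none overlap. GC content is 58.8% in the Thbs3 window and 70.8% in the Thbs4 window. On both strands, 32.7% of 32851 RefSeq windows of the same length hold a GC box. Neither window holds the cAMP response element TGACGTCA (in 1.55% of windows), its part TGACG, which is contained in the full element (17.8%), or the AP-1 motif TGACTCA (4.46%). Windows were found for 5 of the 8 genes, which also include Thbs2, Sparc and Gpc4, and none of these 5 holds the full element, its part or the AP-1 motif. These matches describe letters only.

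Thbs1, an activator of latent TGF-β in tissue repair, was low and had the highest coefficient of variation of the 8 genes when averaged over the 4 groups, although Thbs2 and Thbs4 varied more among control EE mice. It lies at chr2:118111876-118127133 on the plus strand. In SC, its level was 1.86, 2.38 and 5.08 CPM in controls and 1.38, 1.66 and 2.97 CPM in CBP-ifKOs. In EE, it was 3.12, 2.78 and 2.09 CPM in controls and 5.06, 2.03 and 3.41 CPM in CBP-ifKOs. The groups overlapped in both housings, and 1 control SC mouse and 1 CBP-ifKO EE mouse stood highest. The log2 genotype change was −0.62 in SC (95% interval −1.43 to 0.18, adjusted p = 0.373) and 0.41 in EE (95% interval −0.24 to 1.06, adjusted p = 0.498, both edgeR). The difference between these changes was 1.02 (95% interval −0.13 to 2.17, unadjusted p = 0.0788, adjusted p = 0.9998 in edgeR), and the change from SC to EE in CBP-ifKOs was 0.79 (95% interval −0.01 to 1.60, adjusted p = 0.584). The difference was 0.47 without control SC replicate 3 and 0.65 without CBP-ifKO EE replicate 1, the mice that stood highest, and 1.43 without CBP-ifKO SC replicate 3. The SC-to-EE change was 0.42 without CBP-ifKO EE replicate 1 and 1.21 without CBP-ifKO SC replicate 3. Its coefficient of variation within groups averaged 40.4%, against 7.16% for Thbs3 and 3.08% for Sparcl1.

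The 2 mice with the most Thbs1 were also those with the highest summed level of 7 fibroblast markers. The control SC mouse at 5.08 CPM of Thbs1 had 160 CPM of fibroblast markers and the CBP-ifKO EE mouse at 5.06 CPM had 166 CPM, against 72.6 to 146 CPM in the other 10. The order did not continue below these, since the mouse next in Thbs1 (CBP-ifKO EE, 3.41 CPM) had 87.5 CPM of markers and the mouse next in markers (control SC, 146 CPM) had 2.38 CPM of Thbs1. Dcn had the highest level of the 7 markers in every library (40.3 to 103 CPM) and so weighed most in the sum. In Col3a1 (5.93 CPM), Col1a2 (13.6 CPM) and Col1a1 (8.22 CPM), the CBP-ifKO EE mouse at 3.41 CPM of Thbs1 was exceeded by 2, 3 and 3 of the other 11 mice. The marker sum ranged from 95.4 to 160 CPM in control SC, from 72.6 to 139 CPM in CBP-ifKO SC, from 98.1 to 108 CPM in control EE and from 74.4 to 166 CPM in CBP-ifKO EE mice. Of the 7 markers, Igf2 was at 0 in 1 CBP-ifKO SC library and the other 6 were detected in every library. Without the control SC mouse at 5.08 CPM of Thbs1 (replicate 3), its log2 genotype change in SC was −0.06. Without the CBP-ifKO EE mouse at 5.06 CPM (replicate 1), the change of Thbs1 in EE was 0.03. Other mice moved the values away from 0, to −1.04 in SC without CBP-ifKO SC replicate 3 and to 0.68 in EE without CBP-ifKO EE replicate 2. The part of the marker cells in the Thbs1 values was not tested.

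**Figure D4:**
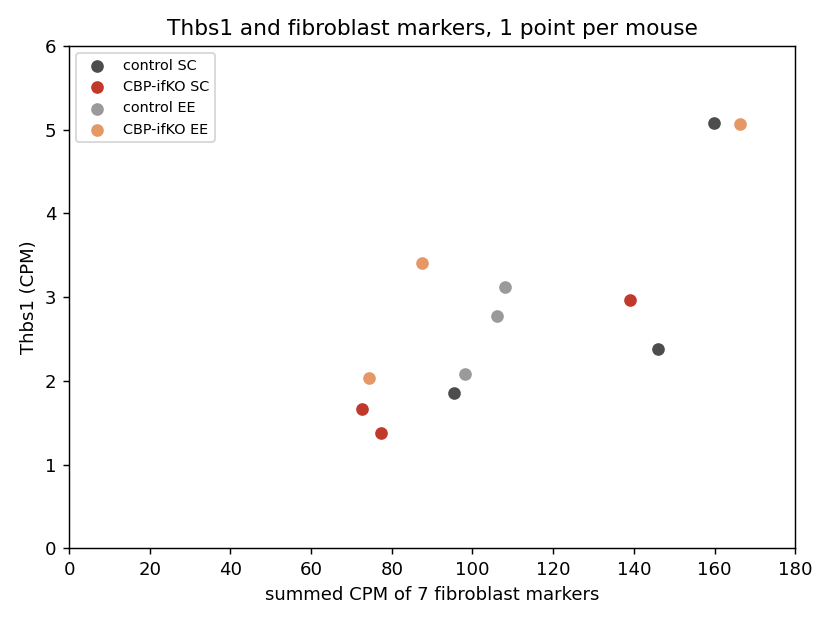
Thbs1 in CPM (y axis) against the summed CPM of 7 fibroblast markers (x axis), with 1 point per mouse. The mice at 160 and 166 CPM of markers are the mice at 5.08 and 5.06 CPM of Thbs1.

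Thbs2, the other trimeric thrombospondin, was higher in every CBP-ifKO than in any control in EE, without passing the test. It lies at chr17:14665500-14694235 on the minus strand. Its level was 6.14, 3.94 and 5.60 CPM in control EE mice and 8.11, 6.62 and 7.17 CPM in CBP-ifKO EE mice. The log2 change was 0.49 (SE 0.171, 95% interval 0.11 to 0.87, unadjusted p = 0.0151, adjusted p = 0.137 in edgeR), or 0.32 without control EE replicate 2 and 0.62 without control EE replicate 1. The SC mice had 5.12, 5.44 and 5.88 CPM of Thbs2 as controls and 5.56, 3.46 and 6.89 CPM as CBP-ifKOs, so the groups overlapped. The change there was −0.04 (95% interval −0.49 to 0.41, adjusted p = 0.943), and the difference between both changes was 0.52 (95% interval −0.10 to 1.14, adjusted p = 0.9998 in edgeR), or 0.30 without CBP-ifKO SC replicate 2 and 0.76 without CBP-ifKO SC replicate 3. Col1a1, a fibrillar collagen, was the only called gene among 10 matrix genes in EE, beside 4.57% of all genes, and rose in CBP-ifKO EE mice by 0.72 on the log2 scale (SE 0.172, adjusted p = 0.0393 in edgeR). Col1a1 is also 1 of 7 fibroblast markers, of which 1 was called in EE and 3 were higher in every CBP-ifKO EE mouse than in any control EE mouse, beside 25.3% of all genes that did not overlap in either direction. The other two were the collagens Col1a2, at 6.60 to 8.85 CPM against 10.1 to 26.2 CPM with a log2 change of 1.13 (adjusted p = 0.0503), and Col3a1, at 1.54 to 3.82 CPM against 4.43 to 6.67 CPM with a log2 change of 0.999 (adjusted p = 0.0677, both edgeR). The remaining 4 overlapped, with changes between −0.31 (Dcn) and 0.55 (Slc6a13). In SC, by contrast, all 7 fibroblast markers were lower in CBP-ifKOs, with a median log2 change of −0.39. Among controls, all 7 were lower in EE than in SC, with a median of −0.51. The part of fibroblasts in the Thbs2 values was not tested.

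Sparcl1 and Sparc had the most counts of the 8 genes, and their genotype changes lay close to 0. Sparcl1 lies at chr5:104079111-104113733 on the minus strand. In SC, its level was 1822, 1782 and 1840 CPM in controls and 1831, 1744 and 1855 CPM in CBP-ifKOs. In EE, it was 1895, 1713 and 1762 CPM in controls and 1829, 1750 and 1787 CPM in CBP-ifKOs. All 4 groups overlapped, and the highest of the 12 mice exceeded the lowest 1.11 times. The 95% interval of the log2 genotype change was −0.10 to 0.09 in SC and −0.11 to 0.12 in EE.

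Sparc lies at chr11:55394500-55423183 on the minus strand. Its level was 238, 227 and 302 CPM in control SC and 242, 258 and 281 CPM in CBP-ifKO SC mice. In EE, it was 280, 226 and 251 CPM in controls and 288, 267 and 246 CPM in CBP-ifKOs. The groups overlapped in both housings, and the log2 genotype change was 0.03 in SC (95% interval −0.18 to 0.23, adjusted p = 0.914) and 0.09 in EE (95% interval −0.10 to 0.28, adjusted p = 0.613, both edgeR). The hevin RNA exceeded Sparc RNA per kilobase by 9.30, 9.01, 9.18 and 8.67 times on average in control SC, CBP-ifKO SC, control EE and CBP-ifKO EE mice.

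Gpc4 stood at 0.879 times the control level in CBP-ifKO SC mice and at 0.845 times in CBP-ifKO EE mice. It lies at chrX:52053021-52165252 on the minus strand. Control SC mice had 32.2, 30.0 and 31.0 CPM of Gpc4, and CBP-ifKO SC mice had 28.0, 26.8 and 27.2 CPM. In EE, it was 30.6, 34.4 and 35.3 CPM in controls and 30.4, 28.8 and 25.0 CPM in CBP-ifKOs. Every CBP-ifKO lay below every control of the same housing, which held for 7.59% of 17250 genes. The log2 change was −0.19 in SC (SE 0.0655, unadjusted p = 0.0151, adjusted p = 0.128) and −0.24 in EE (SE 0.0901, unadjusted p = 0.0204, adjusted p = 0.160, both edgeR). Averaged over both housings in all 12 mice, a comparison added because these values had been seen and so no independent test of Gpc4, the change was −0.22 (SE 0.0550). In that comparison 1 of the 7 relatives, Gpc4, was called, near the share of 16.9% of 18251 genes, and 0 of the 7 were called with an absolute log2 change above 0.5.

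Markers of several cell types stood lower in CBP-ifKOs as sums. The summed level of 10 astrocyte markers was 5145 to 5805 CPM in control SC, 4938 to 5140 CPM in CBP-ifKO SC, 5170 to 5511 CPM in control EE and 4668 to 4766 CPM in CBP-ifKO EE mice. Every CBP-ifKO thus lay below every control of its housing, but none of the 10 passed the test in either housing and none was at 0 in any library. Of the 10, 2 were higher in CBP-ifKOs in SC, with Aldh1l1 at a log2 change of 0.14. In EE, 3 of the 10 were higher, with changes up to 0.27. The sum of 3 markers of oligodendrocyte precursors was 122 to 141.9 CPM in controls against 96.2 to 109.6 CPM in CBP-ifKOs in SC, and 124 to 132 CPM against 102 to 113 CPM in EE. For 8 interneuron markers it was 899.8 to 975.1 CPM against 844 to 883 CPM in SC and 939 to 1013 CPM against 878 to 913 CPM in EE, and for 8 microglia markers 335 to 346 CPM against 305 to 332 CPM and 316 to 353 CPM against 299.5 to 313 CPM. None of these 4 sums overlapped between genotypes, whereas other sets did in 1 or both housings. Of the markers in these 4 sums, Pdgfra and Sst were called lower in SC and Gpr17 in EE. The shares of all genes called were 5.52% in SC and 4.57% in EE. In each housing 1 of the 8 interneuron markers was higher in CBP-ifKOs, while all 3 precursor and all 8 microglia markers were lower. The sum of 7 oligodendrocyte markers overlapped in SC (3615 to 4850 CPM in controls, 3936 to 4570 CPM in CBP-ifKOs) and in EE (3913 to 5136 CPM, 3850 to 4808 CPM). That of 9 choroid plexus markers did not overlap in SC, at 53.1 to 59.0 CPM in controls against 39.6 to 43.5 CPM in CBP-ifKOs. It overlapped in EE, at 39.3 to 1296 CPM against 39.9 to 68.1 CPM. The sums of 8 endothelial and 7 mural cell markers were lower in every CBP-ifKO in SC but overlapped in EE, at 223 to 247 CPM against 232 to 239 CPM and at 186 to 220.4 CPM against 203 to 252 CPM. Among these markers, Kdr and Rgs5 were called lower in SC and Myh11 was called higher in EE. Of 7 markers of hippocampal excitatory neurons, 3 fell in both housings, against 5.52% of genes called in either direction in SC and 4.57% in EE. Nrgn, a calmodulin-binding protein of neurons, fell by 0.44 (adjusted p = 0.0032) in SC and by 0.58 (adjusted p = 0.0015) in EE on the log2 scale in edgeR. Wfs1, a CA1 marker, fell by 0.72 (adjusted p = 0.0049) and by 0.999 (adjusted p = 0.00083), and Spink8 by 0.65 (adjusted p = 0.0108) and by 0.48 (adjusted p = 0.0095), both edgeR. The other 4 were not called, with changes between −0.19 and 0.18 in SC and between −0.15 and 0.16 in EE. The summed level of all 7 was 2434 to 2825 CPM in controls against 2332 to 2492 CPM in CBP-ifKOs in SC, where the groups overlapped, and 2694 to 2957 CPM against 2251 to 2467 CPM in EE. The part of these cell types in the Thbs3 and Gpc4 values was not tested.

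Gpc6, the low-abundance glypican, lies at chr14:116925315-117976544 on the plus strand. In SC, its level was 2.38, 3.59 and 2.83 CPM in controls and 3.77, 3.88 and 4.03 CPM in CBP-ifKOs. All 3 CBP-ifKOs were above the controls, with a log2 change of 0.41 (SE 0.176, 95% interval 0.02 to 0.79, unadjusted p = 0.0396, adjusted p = 0.215 in edgeR). In EE, its level was 3.38, 2.86 and 3.04 CPM in controls and 2.43, 4.004 and 3.00 CPM in CBP-ifKOs. The groups overlapped there, and the change was 0.03 (95% interval −0.42 to 0.48, adjusted p = 0.957 in edgeR). Gpc4 exceeded Gpc6 per kilobase 26.6 times in control SC and 17.0 times in CBP-ifKO SC mice, and 26.5 and 22.7 times in EE.

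Housing changed none of the 7 relatives past the test. In controls, 0 of 7 were called with 0% of 18251 genes called in edgeR, and none had an unadjusted p below 0.05, against 4.21% of genes. Their log2 changes from SC to EE lay between −0.23 (Thbs1) and 0.21 (Thbs4). In CBP-ifKOs, 0 of 7 were called against 0.011% of genes, and 1 had an unadjusted p below 0.05, against 8.59% of genes, which was Thbs2 with a change of 0.45 (95% interval 0.02 to 0.88, unadjusted p = 0.0398, adjusted p = 0.553 in edgeR), or 0.23 without CBP-ifKO SC replicate 2 and 0.69 without CBP-ifKO SC replicate 3. The changes there lay between −0.31 (Gpc6, −0.15 without CBP-ifKO EE replicate 1 and −0.52 without CBP-ifKO EE replicate 2) and 0.79 (Thbs1), and groups did not overlap for 1 of the 7, Thbs4, near the share of 15.9% of all genes. The joint test called 0 of 7, against 0.0329% of genes, and the interaction test called 0 of 7.

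Other members of these families and their receptors were examined as lists, for which the shares of all genes called were 5.52% in SC and 4.57% in EE and the medians over all genes −0.0019 and 0.01. Of 11 further family members, 10 were tested in either housing, and Comp, the fifth thrombospondin, was too low. Gpc1, a neuronal glypican, fell in CBP-ifKO SC mice by 0.27 on the log2 scale (SE 0.0556, adjusted p = 0.0183 in edgeR), and 0 of 10 were called in EE. The median change of this list was −0.15 in SC and −0.16 in EE. Of 15 receptors and binding partners, Ptprs, a receptor phosphatase that binds heparan sulfate proteoglycans, fell in SC by 0.19 (SE 0.0489, adjusted p = 0.0439 in edgeR), and 0 of 15 were called in EE. Cacna2d1 was among the genes not called. The median of the receptor list was −0.04 in both housings. Of 10 other astrocyte-linked synapse organizers and AMPA receptor subunits, 0 were called in SC and 0 in EE, with medians of −0.10 and −0.11. Of the 10 matrix genes, 0 were called in SC. None of these lists had a gene called in the housing or interaction tests.

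Genes next to Thbs3 were also compared between genotypes. Of the annotated genes within 50 kb, 14 were examined, of which 11 were tested and 0 were called in SC or in EE, near the shares of 5.52% and 4.57% of all genes. Groups did not overlap for 4 of the 11 in SC and for 1 of the 11 in EE, against 25.9% and 25.3% of all genes. In edgeR, Gm43737 (unadjusted p = 0.0310) and Trim46 (0.0376) lay below 0.05 in SC, and Clk2 (0.0120) did in EE. Of all genes, 20.5% and 19.6% had an unadjusted p below 0.05. Their log2 genotype changes lay between −0.41 and 0.23 in SC and between −0.36 and 0.20 in EE, the lowest in both being the barely detected Muc1. Trim46, a microtubule organizer of the axon initial segment lying downstream, had a change of −0.14 in both. Mtx1, a component of mitochondrial protein import on the opposite strand, shares 318 of the 4823 exonic bases of Thbs3. Whether the reads were counted by strand is not given in the sources used here, so reads in these shared bases cannot be assigned. Mtx1 itself lay between 21.5 and 27.2 CPM in the 12 mice, with log2 changes of 0.16 in SC (adjusted p = 0.294) and 0.08 in EE (adjusted p = 0.611, both edgeR). Thbs1 likewise shares 208 exonic bases with the antisense Gm29233.

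**Figure D5:**
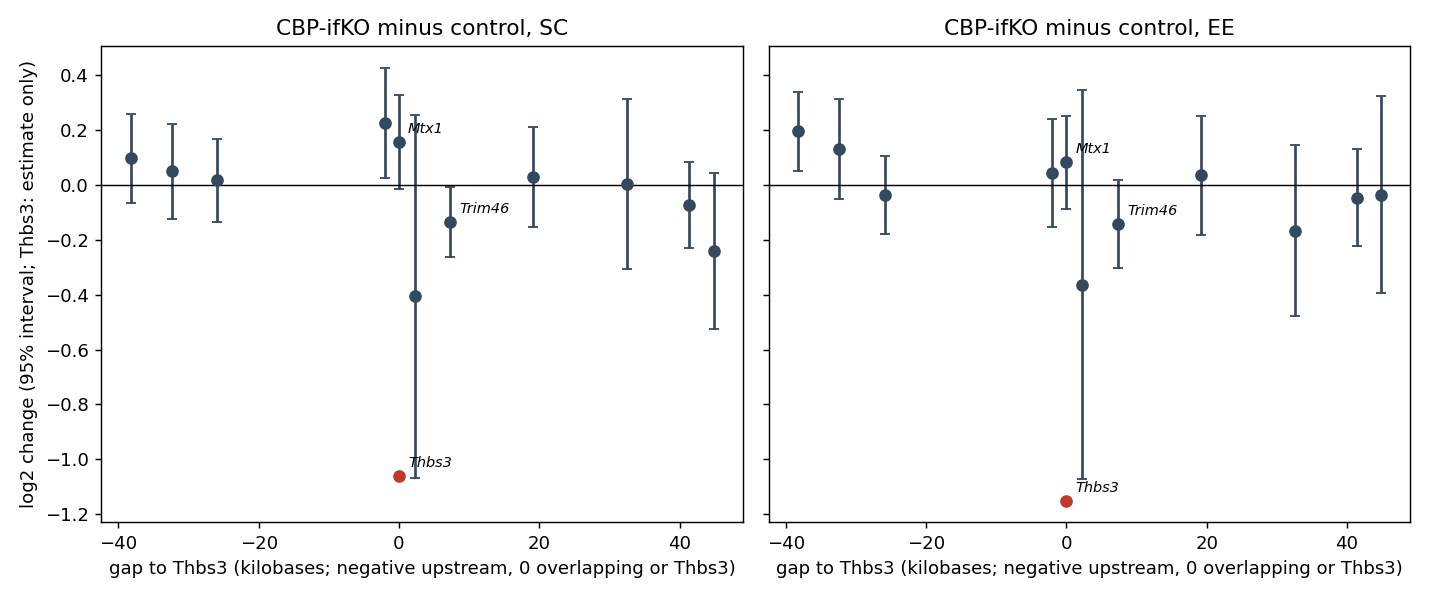
Log2 change between CBP-ifKOs and controls (y axis) for Thbs3 and, with its 95% interval, for 11 tested genes within 50 kb, against their gap to Thbs3 in kilobases (x axis), in SC and in EE. Thbs3 (red) is at −1.06 and −1.15, and the estimates of its neighbors lie between −0.41 and 0.23.

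Over the 12 libraries, the 5 genes with the pattern most like Thbs3 in log2 CPM were Rasgef1a (Pearson r = 0.989), Coro2b (0.989), Ptpru (0.988), Hpcal4 (0.986) and Kcnip2 (0.986), among 18250 genes. Their log2 genotype changes lay between −0.58 (Ptpru) and −0.35 (Coro2b) in SC and between −0.54 (Rasgef1a) and −0.39 (Coro2b) in EE, all smaller in size than that of Thbs3. After the group means were subtracted, the highest values belonged to Traf3ip3 (0.958), Clca3a1 (0.957), Dclk2 (0.952), Ap2a2 (0.925) and Fam107b (0.920), of which Traf3ip3 (0.235 to 1.23 CPM) and Clca3a1 (0.0588 to 0.914 CPM) were low. Among the relatives, Gpc4 was the most similar to Thbs3, with r = 0.791 before and 0.806 after the group means were subtracted, while the other 6 lay between −0.37 and 0.34 before. The r values are descriptions over 12 libraries that share genotype and depth differences.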

How the data were processed

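Per the labels and the study's methods, each mouse was sequenced in 2 runs of 50-base single-end reads. According to the submitters' processing notes, Trim Galore 0.6.4 and STAR 2.6.1 were used with mm10 (GRCm38). The authors discarded alignments of mapping quality 10 or less and assigned the rest to exons (Rsubread, Ensembl annotation). The deposited table gives raw, unnormalized counts of each gene, 1 column per mouse with both runs merged, and a gene length in bases from the authors' counting program. Each mouse was 1 replicate.

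Here, edgeR 4.0.16 (R 4.3.3) was applied to the counts (expression filter, TMM, quasi-likelihood F test, Benjamini-Hochberg adjustment over all genes, threshold 0.05). The genotype was tested in the 6 mice of a housing condition, and housing and interaction in all 12 mice, with an absolute log2 change above 0.5 for housing. CPM are TMM-scaled, and log2 CPM for likeness used a prior count of 2. Intervals are 95% intervals from the fit. The procedure was tested on simulated counts. Alternatives were DESeq2 1.42.0, its size factors, other filters, halved CBP-ifKO counts, other sets of mice, thresholds, a replicate block and leaving out each mouse. The average over both housings was chosen after Gpc4 had been seen. The members, lists and named genes (all 8 members, list genes past the threshold, genes within 50 kb of Thbs3 and the 5 most similar genes by each measure) were chosen with earlier results of these data known. One gene within 50 kb of Thbs3 is not reported here. Positions are from GENCODE (GRCm38) and upstream windows from RefSeq (GRCm38.p6). Of 55471 genes, 55144 matched a symbol.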

Additional observations from a re-analysis of the deposited data

How the results depend on the processing

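The genotype values of Thbs3 stayed between −1.08 and −1.02 in SC and between −1.24 and −1.05 in EE under 14 alternatives each. Of 595 alternative log2 changes with a test, 562 kept their direction and side of the threshold, 28 turned sign, 4 passed the threshold newly and 1 lost it. The cause of these shifts was not tested. Thbs1 (46 to 196 counts per library, with a lowest of 23 where CBP-ifKO counts are halved) and Gpc6 (64 to 152) had the lowest counts of the 8 genes.

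Without a filter on low counts, 1512 genes were called in SC and 1677 in EE, with 2 of 7 relatives in EE, which were Thbs4 (−0.38, adjusted p = 0.0175) and Gpc4 (−0.26, adjusted p = 0.0425) in edgeR. In the same setting 80 genes were called for housing in controls, 121 in CBP-ifKOs with 1 relative (Thbs1, 0.80, adjusted p = 0.0325 in edgeR), 114 in the joint test and 110 for interaction. DESeq2 called 1211 genes in EE, 6 for housing in controls, 20 in CBP-ifKOs and 12 in the joint test. An absolute log2 change above 0.5 left 283 genes in SC, 276 in EE and 523 with 0 relatives in the average over housings, so that Gpc4 (−0.22) was no longer called. Without a fold threshold the joint test called 13 genes. The fit of 12 mice called 1293 genes in EE, and halved counts called 0 genes for housing in CBP-ifKOs. The Sparcl1 genotype change turned sign to 0.0026 in SC with a filter of 1 CPM in 3 mice, and in EE to −0.0105 without a filter and to −0.00085 in the fit of 12 mice.

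Leaving out 1 mouse at a time gave 399 (without CBP-ifKO SC replicate 2) to 1908 (without control SC replicate 2) genes in SC and 285 (without control EE replicate 3) to 1016 in EE, with 0 to 1 relatives called in EE. For housing it gave 0 to 3 genes in controls, 0 to 6 in CBP-ifKOs and 0 to 7 in the joint test. The genotype changes that turned sign ranged in SC from −0.27 to 0.19 for Thbs2, −0.0246 to 0.17 for Thbs4, −0.0548 to 0.17 for Sparc and −0.0215 to 0.0227 for Sparcl1. In EE they ranged from −0.0264 to 0.0498 for Sparcl1 and −0.18 to 0.19 for Gpc6. The housing changes in controls ranged from −0.49 to 0.33 for Thbs1, −0.20 to 0.10 for Thbs2, −0.0066 to 0.40 for Thbs4, −0.10 to 0.12 for Sparc, −0.0627 to 0.0107 for Sparcl1 and −0.0523 to 0.25 for Gpc6. In CBP-ifKOs they ranged from −0.0170 to 0.10 for Sparc, −0.0420 to 0.0015 for Sparcl1 and −0.0210 to 0.12 for Gpc4.

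The labels do not say whether equal replicate numbers pair the mice, and correlations did not settle it. Those of same-numbered mice ranged from 0.0335 to 0.305 between control SC and EE mice (mean 0.176, against −0.0879 for other numbers). Between genotypes they ranged from −0.0472 to 0.102 in SC (mean 0.0429, against −0.0216) and from 0.0341 to 0.124 in EE (mean 0.0907, against −0.0452). Between CBP-ifKO SC and EE mice they ranged from −0.0463 to 0.0863 (mean −0.0011, against 0.00073). With the replicate block, 0 of 7 relatives were called in SC and in EE. In these comparisons 1041 and 1089 genes were called, against 968 and 805 without the block. For housing in CBP-ifKOs 10 genes were called, against 2 without it. The block changed no call of the 8 genes.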
